A study of Homo sapiens with 4 samples.

Results

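The aldo-keto reductases are enzymes that use NADPH to reduce aldehydes and ketones to alcohols. The 10 genes described here are AKR1A1, AKR1B1, AKR1B10, AKR1B15, AKR1C1, AKR1C3, AKR1C4, AKR1C8P, AKR7A2 and AKR7A3. They were chosen by name, with their levels and differences on these arrays already known, and every gene probe that carries one of these names was taken. This gave 15 probes on 24 spots, of 43317 gene names, 58201 gene probes and 60901 gene spots on the array.

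Gene expression was measured with Agilent 1-colour microarrays in 2 human cancer cell lines, in a series about PSAT1, an enzyme of serine synthesis, and the release of vesicles by cancer cells. The 4 groups were HCT116 colorectal cancer cells transfected with the negative control RNA NC1, HCT116 cells transfected with miR-891b, A549 lung cancer cells transfected with NC1 and A549 cells transfected with miR-891b. All groups received their RNA with the reagent Dharmafect1, and the dose and time are not given in the sources used here. There was 1 array per group, so every value below is a description with no replicate check and no p-value. Both arrays of a line lay on the same slide and the lines grew in different media (McCoy's 5A for HCT116, DMEM for A549), so line, slide and medium cannot be told apart. The arrays of miR-891b and its control shared a slide in each line.

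Members of the family clear reactive carbonyls from food, drugs and lipid oxidation, and several also reduce sugars, retinal, prostaglandins and steroid hormones. Many of the AKR1B and AKR1C genes are known targets of NRF2, the transcription factor of the oxidative stress response, which the adaptor protein KEAP1 holds down. A549 is known for a mutated KEAP1 gene; the state of NRF2 and KEAP1 protein was not measured here.

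The microRNA introduced into the cells and the probes on which the results turn are printed first, because what a probe can bind decides which gene its value belongs to. In hsa-miR-891b the seed, bases 2 to 8, is in capitals (RefSeq, GRCh38.p14).
hsa-miR-891b: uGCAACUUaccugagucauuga
Its DNA seed match, AAGTTGC, was found in 229 of 58201 gene probes (0.393%) and in 0 of the members' probes. A probe covers 60 bases of a transcript, so this says nothing of the rest of the transcript.

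AKR1B10 had 2 probes of its own. The stretch of the second one up to TGA, the stop codon of the reading frame, in capitals, is coding sequence (chr7:134225799-134225858 for the whole probe, plus strand, hg19, as are all probe positions below). The single AKR1B15 probe (chr7:134262468-134262527, plus strand) is shown whole, because the array design lists RefSeq accessions of both AKR1B15 and AKR1B10 for it.
AKR1B10, second probe: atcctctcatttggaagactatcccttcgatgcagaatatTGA
AKR1B15: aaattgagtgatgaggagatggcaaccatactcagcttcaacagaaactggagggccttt
AKR1B10 was thus listed at 3 probes and AKR1B15 at 1, and no probe was listed for AKR1B15 alone.

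The AKR1C genes are also related to each other in sequence. The second AKR1C1 probe (chr10:5005636-5005695, plus strand), printed from its ATG in capitals, lists accessions of AKR1C1 and AKR1C2 and was the only probe that lists AKR1C2.
AKR1C1, second probe: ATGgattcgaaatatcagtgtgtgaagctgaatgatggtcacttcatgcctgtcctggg
The 2 AKR1C4 probes share a run of 29 bases, in capitals. The first (chr10:5246396-5246455) lies within 60 bases of the genome and the second (chr10:5246427-5247749) spans 1323, so it crosses an exon junction.
AKR1C4, first probe: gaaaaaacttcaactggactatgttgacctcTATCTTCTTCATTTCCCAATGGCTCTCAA
AKR1C4, second probe: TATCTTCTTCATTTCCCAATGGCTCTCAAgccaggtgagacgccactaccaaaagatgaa
AKR1C8P, named AKR1C8 in RefSeq today, had a first probe that crosses a junction (chr10:5202118-5202747, minus strand) and a second within 1 stretch (chr10:5203820-5203879). The second matches the first AKR1C4 probe at 44 of 60 positions, and the 16 that differ are in capitals.
AKR1C8P, first probe: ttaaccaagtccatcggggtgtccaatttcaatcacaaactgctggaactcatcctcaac
AKR1C8P, second probe: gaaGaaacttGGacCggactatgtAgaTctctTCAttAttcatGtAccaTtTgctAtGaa
How far each probe also bound the transcripts of related genes was not tested, so the values are those of probes named for a gene.

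The 75th percentile of the processed signal, to which each array was scaled, was 54.9 to 57.0 intensity units in HCT116 and 74.2 to 74.8 in A549. Of the gene probes, 44.7% to 50.3% were well above background, by the mark of the scanning software, and 0 gene spots were saturated. Some areas of an array held stray signal, seen as 10% or more of the surrounding spots being well above background there while dim everywhere else. In HCT116 such areas held 2.20% of gene spots with NC1 and 10.5% with miR-891b, and in A549 0.021% and 1.83%. For probes spotted several times, the median SD of a log2 difference between arrays was 0.061 to 0.071 over spots, which covers the error within an array pair and not that between cultures.

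The line labels were set against marker genes. Of 8 colorectal epithelial markers, CDX1, CDX2, EPCAM and CLDN7 were well above background on both HCT116 arrays, and the intestinal factor CDX2 differed by -5.23 between A549 and HCT116 on the NC1 arrays (log2, A549 minus HCT116). VIL1, CDH17 and LGALS4 of the same list went against the label: they were not above background in HCT116 and at least 67.5-fold, 13.4-fold and 18.3-fold higher in A549. A549 had 7 of the 8 above background, with a log2 summed level of 3.80 and 4.02 where HCT116 had 7.24 and 6.99, and GPA33 was dim on all arrays. Of 8 lung epithelial markers NAPSA, SFTPC and SCGB1A1 were above background on every array and SFTPD on the A549 arrays only. NKX2-1, a defining factor of the alveolar lineage, was not above background in A549 but was in HCT116, at -1.34 with NC1 and -2.86 with miR-891b. Of 6 fibroblast markers 2 were above background on the HCT116 arrays and 3 on the A549 arrays. Their log2 summed level was 1.39 and 1.11 in HCT116 and 1.96 and 3.37 in A549, and of the 4 leukocyte markers on the array 3 were above background on every array. The part of either list in the results was not tested.

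Between the lines, AKR1B1, AKR1B10, AKR1B15, AKR1C1, AKR1C3, AKR1C4 and AKR1C8P were all far higher in A549 than in HCT116, by 47.8-fold or more at their brightest probes. AKR7A2 and AKR7A3 were lower in A549 by about 2-fold, and AKR1A1 was within 2-fold. Levels below are log2 of the processed signal minus the 75th percentile of the array, so 0 is that percentile and 1 unit is 2-fold. Levels of different probes are not comparable. AKR1A1, the general aldehyde reductase, was at 3.24 with NC1 and 2.85 with miR-891b in HCT116, and at 2.73 and 3.12 in A549 (chr1:46032273-46032332, plus strand). The 4 levels lay close together, and neither line was uniformly the higher. A549 minus HCT116 was -0.51 on the NC1 arrays and 0.27 on the miR-891b arrays.

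The 3 AKR1B genes, whose probes lie between chr7:134130061 and chr7:134262527, were far brighter in A549. AKR1B1 is aldose reductase, which turns glucose into sorbitol. Its probe (chr7:134130061-134132097, minus strand, spanning 2037 bases) read 620 intensity units with NC1 and 684 with miR-891b in HCT116, and 47827 and 42620 in A549. The lines did not overlap, at levels of 3.50 and 3.59 in HCT116 and 9.32 and 9.17 in A549. A549 was 56.7-fold higher on the NC1 arrays and 47.8-fold higher on the miR-891b arrays.

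AKR1B10 reduces retinal and aliphatic aldehydes and is known as a marker of lung cancers. Its brighter probe (chr7:134225939-134225998, plus strand) read 11.2 with NC1 and 259 with miR-891b in HCT116, and 70459 and 61431 in A549. The software's error of a single spot was 1.54, 25.9, 7046 and 6143 in the same order. The A549 arrays were high and alike, and the HCT116 arrays lay far below them and far from each other. The levels were -2.29, 2.18, 9.88 and 9.69, which put A549 4607-fold above HCT116 on the NC1 arrays and 182-fold on the miR-891b arrays. The second probe, whose coding bases are printed above, stood at -1.99, 2.06, 9.71 and 9.58, with line differences of 11.70 and 7.53 (log2). Both probes thus gave the same order of the 4 arrays.

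AKR1B15 is the neighbouring paralogue of AKR1B10. Its probe read 5.73 with NC1 and 138 with miR-891b in HCT116, and 42110 and 36650 in A549. The levels of -3.26, 1.28, 9.14 and 8.95 followed those of AKR1B10, at a Euclidean distance of 0.20 after each gene was centred on its own mean over the 4 arrays. Since the probe also lists AKR1B10, the 2 genes cannot be told apart by it.

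AKR1C1, which inactivates progesterone by reduction, read 7.54 with NC1 and 7.43 with miR-891b in HCT116, the latter not well above background, and 39785 and 34421 in A549 at its brightest probe (chr10:5019910-5019969, plus strand). A549 was 3872-fold higher on the NC1 arrays and at least 3555-fold higher on the miR-891b arrays. A value written "at least" sets the bright array against the higher of the dim probe's own level and the lowest level well above background on the dim array. The second probe, shared with AKR1C2, stood at -2.98, -2.52, 7.72 and 7.27 in the same order of arrays. The third (chr10:5011936-5011995) was not above background in HCT116 and stood at 1.34 and 1.32 in A549, at least 29.7-fold and 21.9-fold higher. All 3 probes were far higher in A549, while the size of the difference varied between them.

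AKR1C3 makes testosterone from androstenedione and forms prostaglandin F. Its probe (chr10:5147789-5147848, plus strand) read 59.8 with NC1 and 116 with miR-891b in HCT116, and 54771 and 52571 in A549. It was the only AKR1C member whose brightest probe was well above background on all 4 arrays, at levels of 0.12, 1.03, 9.52 and 9.47. A549 was 672-fold higher on the NC1 arrays and 347-fold higher on the miR-891b arrays.

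AKR1C4, known as a liver steroid dehydrogenase, and AKR1C8P were at background in HCT116. The first AKR1C4 probe read 4873 with NC1 and 4351 with miR-891b in A549 (levels 6.03 and 5.87), at least 762-fold and 515-fold above HCT116. The second, with which it shares 29 bases, read 24.5 and 24.9 (levels -1.61 and -1.58), at least 3.83-fold and 2.94-fold above HCT116. The direction was the same at both, while the bound was far smaller at the second.

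The first AKR1C8P probe stood at 7.72 with NC1 and 7.53 with miR-891b in A549, at least 2459-fold and 1626-fold above HCT116. The second stayed at background on all 4 arrays. The signal in A549 was therefore seen at 1 of the 2 probes named for AKR1C8P.

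The AKR7 genes ran the other way. AKR7A2 reduces succinic semialdehyde, and its 1 probe by name was spotted 10 times (chr1:19630593-19630652, minus strand). A probe named for another gene, AS3MT, also lists an accession of AKR7A2, and its values are not given here. Its level was 5.49 ± 0.070 with NC1 and 5.10 ± 0.051 with miR-891b in HCT116, and 4.33 ± 0.056 and 4.40 ± 0.050 in A549 (SD over 10 spots of 1 array each). HCT116 was high and A549 low with no overlap of spots. The difference between the lines, A549 minus HCT116, was -1.16 ± 0.10 on the NC1 arrays, with 9 of 10 spots at least 2-fold lower, and -0.70 ± 0.067 on the miR-891b arrays, with 0 of 10. Of the 10 spots 7 lay outside stray areas. The spots are no replicates of the cells.

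AKR7A3, which reduces aflatoxin dialdehyde, stood at 3.53 with NC1 and 3.25 with miR-891b in HCT116, and at 2.28 and 2.21 in A549 (chr1:19610614-19611233, minus strand). Both HCT116 levels were above both A549 levels. A549 minus HCT116 was -1.26 on the NC1 arrays and -1.04 on the miR-891b arrays.

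**Figure D1:**
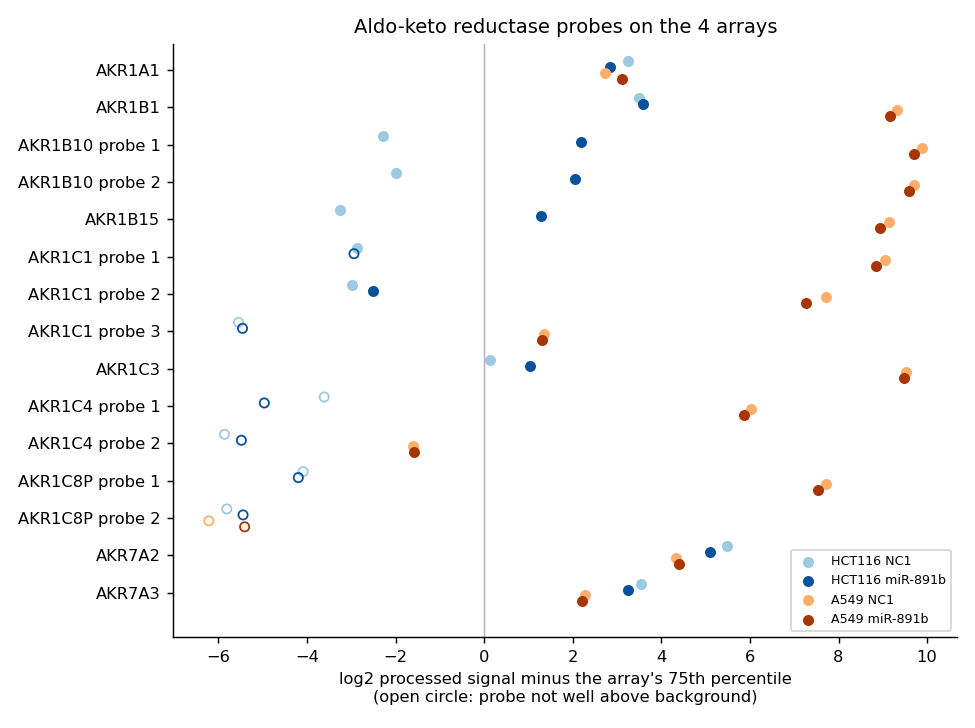
Levels of the 15 aldo-keto reductase probes on the 4 arrays, as log2 processed signal minus the 75th percentile of the array (horizontal axis), with 1 point per probe and array. Filled points are well above background and open points are not; AKR1B10 and AKR1B15 are the probes whose HCT116 points lie furthest apart, from -2.29 to 2.18 for the brighter AKR1B10 probe.

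**Figure D2:**
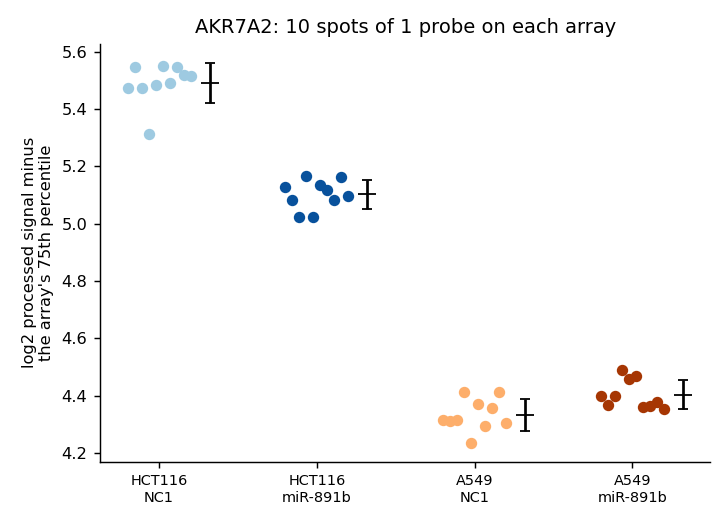
The 10 spots of the AKR7A2 probe on each array (points), with the mean and SD over spots (black), as log2 processed signal minus the 75th percentile of the array. HCT116 NC1 averaged 5.49, and A549 NC1 averaged 4.33.

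Counted over the members, 8 were measured (well above background) on both NC1 arrays. By 2-fold or more, 5 of these were higher in A549 and 2 lower, and AKR1C4 and AKR1C8P add 2 bounds on the higher side. Of all 19219 genes measured, 11.1% were at least 2-fold higher and 16.2% lower, but the members were chosen with this contrast known, so nothing is read from the difference. AKR1B15, AKR1B10 and AKR1C1 ranked 1, 2 and 3 of the 19219, AKR1C3 ranked 5 and AKR1B1 ranked 37. With normexp background correction and quantile normalization the differences of AKR1B15, AKR1B10, AKR1C1 and AKR1C3 shrank from 12.40, 12.17, 11.92 and 9.39 to 9.23, 10.02, 8.93 and 8.51, which put AKR1B10 above AKR1B15. The members' median difference was 7.61 and that of all measured genes -0.10.

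On the miR-891b arrays, 7 members were measured in both lines, of which 4 passed 2-fold upward and 1 (AKR7A3) downward in A549, with 3 bounds on the higher side. Over 18576 genes the shares were 11.4% higher and 20.7% lower. AKR1C3 then ranked 2, AKR1B15 ranked 7, AKR1B10 ranked 9 and AKR1B1 ranked 32.

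**Figure D3:**
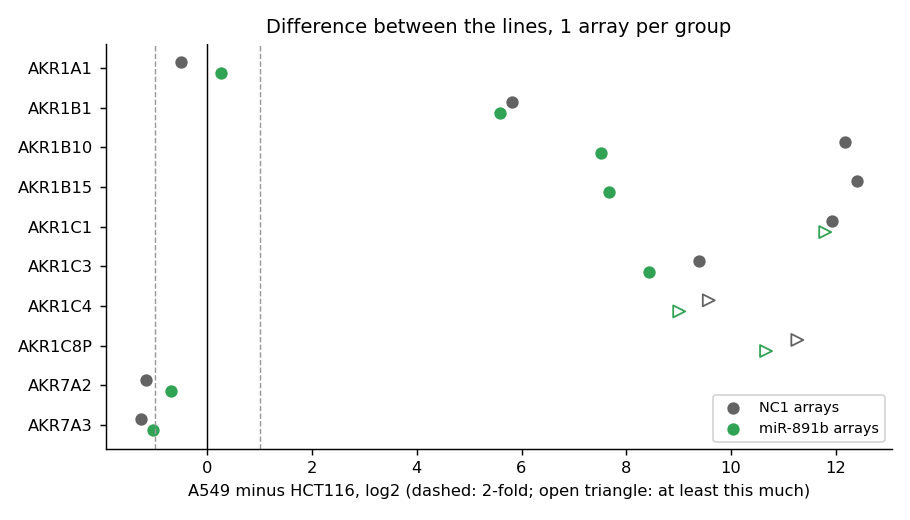
Difference between the lines, A549 minus HCT116 in log2 units, for the 10 genes on the NC1 arrays (grey) and on the miR-891b arrays (green), with 1 array per group. Filled points are measured on both sides and open triangles are lower bounds; the AKR1B10 difference is 12.17 on the NC1 arrays and 7.51 on the miR-891b arrays.

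With miR-891b in HCT116, AKR1B10 rose and most of its relatives did not move by 2-fold. The change, miR-891b minus NC1, was 4.47 at the brighter AKR1B10 probe (22.2-fold) and 4.05 at the second. It was 4.54 (23.3-fold) at the AKR1B15 probe. AKR1C3 was 0.90 higher, which is under 2-fold, and the AKR1C1 probe shared with AKR1C2 was 0.47 higher. The brightest AKR1C1 probe, which stands for the gene, went from -2.86 with NC1 to -2.94 with miR-891b, where it was not well above background, so it gave no measured change.

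The other members measured in HCT116 moved less. AKR1B1 differed by 0.089, AKR7A3 by -0.28, AKR7A2 by -0.39 ± 0.097 (SD over 10 spots) and AKR1A1 by -0.39. AKR1C4 and AKR1C8P were not well above background on either HCT116 array. Thus 2 of 7 measured members were at least 2-fold higher and 0 lower, where 1.16% of 19105 genes were higher and 0.843% lower.

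AKR1B15 and AKR1B10 ranked 2 and 4 among the 19105 genes by this change. Only 6 genes were at least 16-fold higher: ZNF563 (4.64), AKR1B15, TBX3 (4.51), AKR1B10, AF116719 (4.29) and SOAT2 (4.15). For 5 of the 6, AKR1B15 included, the spot lay in an area of stray signal on an HCT116 array, with 14.8% to 21.5% of nearby dim spots lit. AKR1B10 was the exception, at 3.66%, and the spot of its second probe, in row 350 of 384 where the first lay in row 49, had 3.93% on the NC1 array and 0% on the miR-891b array. The AKR1B10 change was as large outside these areas, and for AKR1B15 the part of the stray signal (21.5%) was not tested.

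In A549 all 10 members were measured and 0 changed by 2-fold, against 4.01% of 21337 genes higher and 5.57% lower. At their brightest probes the members' differences ran from -0.20 (AKR1C1) to 0.39 (AKR1A1), with a median of -0.15 beside -0.059 for all genes. The AKR1C1 probe shared with AKR1C2 lay outside this range, at -0.45. AKR1B10 differed by -0.19 at the brighter probe and -0.13 at the second, AKR1B15 by -0.19, AKR1B1 by -0.16 and AKR1C3 by -0.049. AKR1B10 was thus within 2-fold of its control in A549, where it was already at 9.88 with NC1. AKR1B10 in HCT116 with miR-891b remained 182-fold below A549 with miR-891b.

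**Figure D4:**
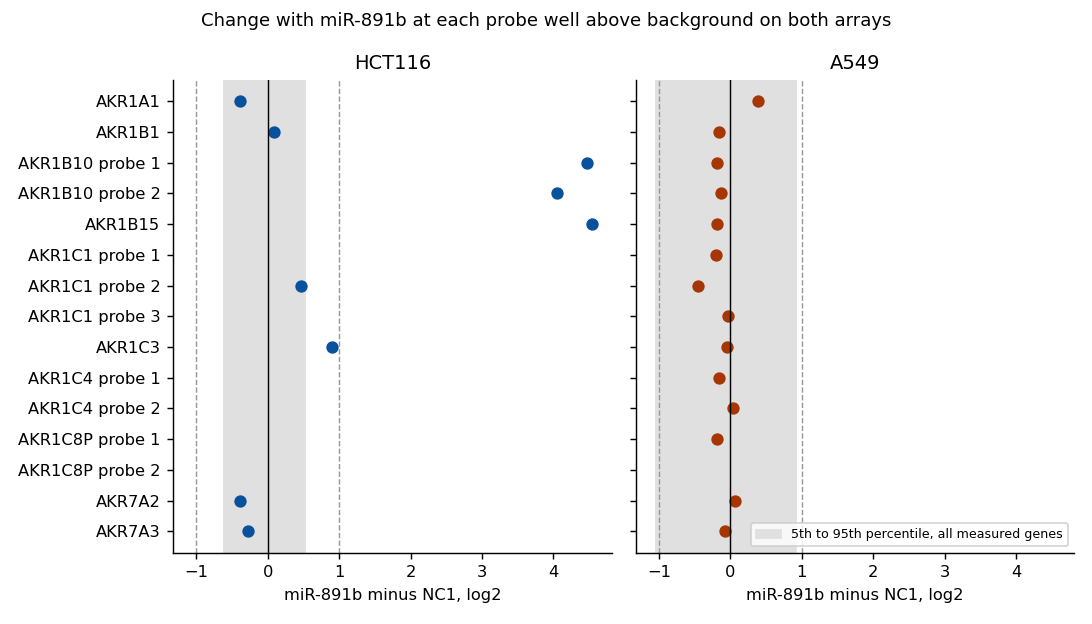
Change with miR-891b, miR-891b minus NC1 in log2 units, at each aldo-keto reductase probe well above background on both arrays of HCT116 (left) and A549 (right). The grey band is the 5th to 95th percentile of all measured genes (-0.61 to 0.52 in HCT116, -1.05 to 0.92 in A549) and the dashed lines mark 2-fold; the 2 AKR1B10 probes and the AKR1B15 probe lie at 4.05 to 4.54 in HCT116.

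Other genes of the same chemistry were counted in lists that were chosen with earlier results of these data known. Of 13 further family genes, 8 were found by name and 4 were measured on both NC1 arrays. A549 minus HCT116 was -1.11 for AKR7L and -1.34 for KCNAB3, a potassium channel beta subunit of the same fold. In HCT116 1 of 4 passed 2-fold with miR-891b, KCNAB3 at -1.54, and in A549 1 of 5, KCNAB2 at 1.52. The shares over all genes were 1.16% higher and 0.843% lower in HCT116 and 4.01% and 5.57% in A549. Nothing is read from such small counts. That KCNAB2 spot lay in a stray area on the A549 miR-891b array (12.1%), and its other probe was 1.19 higher. In HCT116 the 2 KCNAB2 probes were 0.95 and 1.03 higher, and KCNAB1 was at least 2.46-fold higher. AKR1D1, the bile acid and steroid reductase, and AKR1C6P were not above background on any array, and AKR1E2 stood at -1.36 and -1.51 in A549 only.

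Regulators and targets of NRF2 made up a list of 30 genes with no member among them. On the NC1 arrays 17 of 27 measured genes passed 2-fold, all of them higher in A549, with a median of 1.37, beside 11.1% higher and 16.2% lower over all genes. On the miR-891b arrays 13 of 27 were higher and 1, CYP4F11 at -1.94, was lower, with a median of 0.87, beside 11.4% and 20.7%. Among the genes higher in A549 on the NC1 arrays were ALDH3A1, an aldehyde dehydrogenase (7.89), and NQO1, a quinone reductase (2.36). The glutathione peroxidase GPX2 was at least 3089-fold higher. Of the regulators, KEAP1 differed by -0.58 and MAFG, a partner of NRF2 on DNA, by -0.065, and the probe of NFE2L2, the gene of NRF2, was not above background.

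With miR-891b in HCT116, 0 of 27 genes of the NRF2 list passed 2-fold in either direction, which is near the shares over all genes (1.16% higher, 0.843% lower), so nothing is read from the count. Their median was 0.097 and their range -0.84 to 0.59, with SRXN1 at 0.59, HMOX1 at 0.57, GCLM at 0.14 and NQO1 at -0.51. In A549 0 of 29 were at least 2-fold higher and 3 were lower, namely GPX2 (-1.29), HMOX1, heme oxygenase (-1.26) and ALDH3A1 (-1.17). The shares over all genes in A549 were 4.01% higher and 5.57% lower. With quantile normalization the count of 3 was 1, and nothing is read from it. The list median there was -0.094.

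Of 11 short-chain carbonyl and retinal reductases measured on both NC1 arrays, 3 passed 2-fold upward in A549 and 3 downward, among them DHRS3 at 1.82 and DCXR at -2.02. The shares over all genes on these arrays were 11.1% higher and 16.2% lower, and nothing is read from so few genes. With miR-891b 0 of 11 passed 2-fold in HCT116, and in A549 1 of 12 did, DHRS2 at 2.08. The counts with miR-891b in this and the next lists are small beside shares over all genes of 1.16% higher and 0.843% lower in HCT116 and 4.01% and 5.57% in A549, and nothing is read from them. CBR1, the main carbonyl reductase of this list, was not above background in HCT116 and at least 361-fold higher in A549 on the NC1 arrays. The polyol pathway partner SORD, which turns sorbitol into fructose, differed by -1.88, A549 minus HCT116, on the NC1 arrays.

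Of the steroid hormone enzymes, 0 of 10 passed 2-fold with miR-891b in HCT116, and 2 of 11 did in A549, HSD3B7 at 1.00 and HSD17B12 at -1.52. Of the aldehyde dehydrogenases, which oxidise what the reductases reduce, 0 of 8 passed in HCT116 and 2 of 9 in A549, ALDH3A1 and ALDH3A2, at -1.17 and -1.21. Between the lines on the NC1 arrays, 3 of 8 measured aldehyde dehydrogenases were higher in A549 (ALDH3A1 at 7.89, ALDH3B1 at 4.20 and ALDH2 at 1.77) and 1 lower (ALDH1A3 at -4.85). All measured genes had shares of 11.1% higher and 16.2% lower, and nothing is read from this small count. ALDH1A1, the cytosolic retinal dehydrogenase, was not above background in HCT116 and at least 8348-fold higher in A549.

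**Figure D5:**
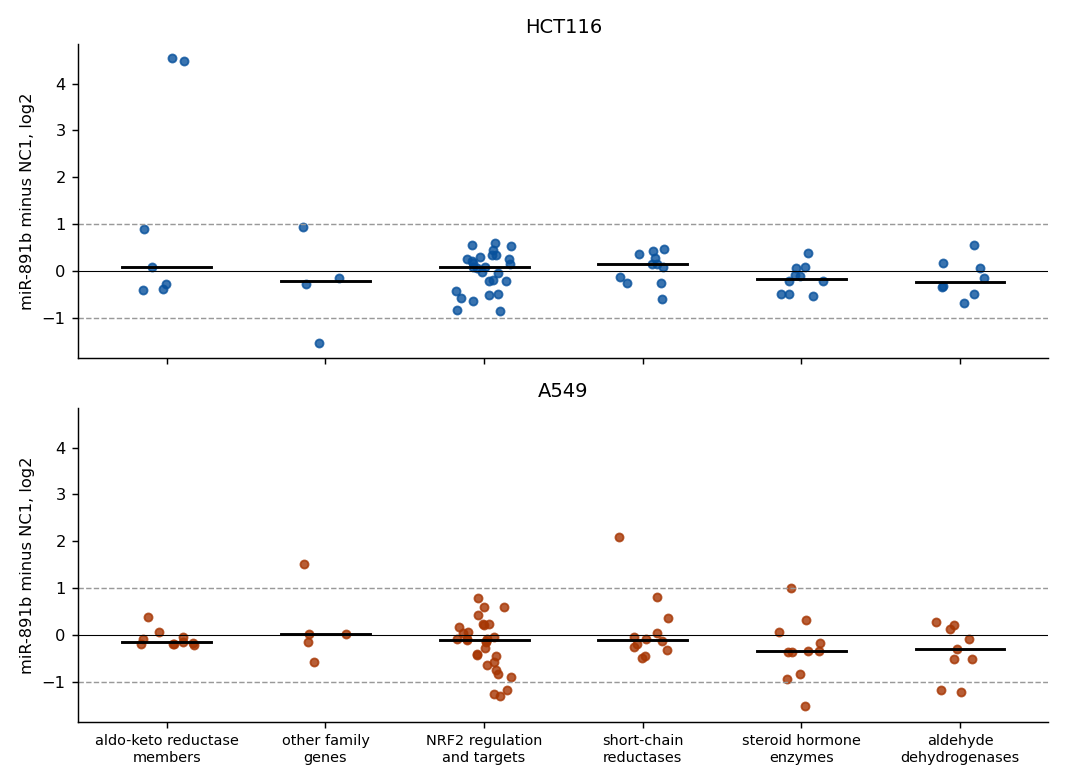
Change with miR-891b, miR-891b minus NC1 in log2 units, of each measured gene of 6 lists in HCT116 (top) and A549 (bottom), with 1 point per gene, the list median as a black bar and 2-fold as dashed lines. In HCT116 the 2 points above 4 are AKR1B10 and AKR1B15, and all 27 points of the NRF2 list lie between -0.84 and 0.59.

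Genes like AKR1B10 over the 4 arrays were sought by Euclidean distance of centred log2 levels. Only genes well above background on both A549 arrays were compared (21335 genes), so signal in A549 was a condition and not a result. The nearest were CPLX2 (1.97), FGL1 (2.02), MMP24 (2.22), BCAS1 (2.41) and CARD6 (2.57). None of the 5 came as near as AKR1B15 (0.20), and AKR1C3 stood at 2.69. Of these, FGL1 was well above background on 3 arrays and the other 4 on the A549 arrays only. Those most like AKR1C1 were XAGE1B (0.59), ACOT1 (0.61), CEACAM6 (0.80), INSL4 (0.82) and FXYD2 (0.88), all well above background on the A549 arrays only. AKR1C8P was nearer to AKR1C1 than these, at 0.098, with its HCT116 levels at background too.

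The promoters of the AKR1C genes are shown because these genes were together high in A549. Promoter windows of RefSeq (GRCh38.p14, from upstream of each start to just past it) were at hand for 8 of the members, with 11 windows. AKR1B10 and AKR1B15 had no window, so their promoters were not searched. Over the AKR1C1, AKR1C3 and AKR1C4 windows and that of AKR1C2, a stretch of 60 bases aligned. In it 37 bases, in capitals, were the same in all 5. The window of AKR1C8, the AKR1C8P of the array, was at hand but not part of this alignment.
AKR1C1 (chr10:4963249-4963308, plus strand): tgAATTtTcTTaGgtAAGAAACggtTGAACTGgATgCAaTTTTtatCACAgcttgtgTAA
AKR1C2 (chr10:5003968-5004027, minus strand): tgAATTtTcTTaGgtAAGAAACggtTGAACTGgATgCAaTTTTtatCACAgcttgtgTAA
AKR1C3, first start (chr10:5048619-5048678, plus strand): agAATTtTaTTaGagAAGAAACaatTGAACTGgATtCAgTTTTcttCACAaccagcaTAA
AKR1C3, second start (chr10:5094239-5094298, plus strand): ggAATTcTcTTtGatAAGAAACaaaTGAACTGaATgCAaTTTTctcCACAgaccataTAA
AKR1C4 (chr10:5196658-5196717, plus strand): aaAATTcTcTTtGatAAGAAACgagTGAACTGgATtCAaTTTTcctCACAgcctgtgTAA
The AKR1C1 stretch begins 166 bases before the start. It equals that of AKR1C2 at 60 of 60 bases, that of AKR1C4 at 49 and those of AKR1C3 at 45 and 44. The longest runs common to these 5 windows were AAGAAAC and TGAACTG. They were present on either strand in 1763 (5.02%) and 1104 (3.14%) of 35116 windows of the table. The core of the antioxidant response element bound by NRF2, TGACNNNGC, was searched on both strands. It was in 2 of the 11 member windows, both of AKR7A2, and in 13.3% of all windows. These 2 windows almost wholly overlap (chr1:19312097-19312396 and chr1:19312095-19312394) and are 1 promoter. No AKR1C window of a member held it, which says only that these letters are not within this stretch. The AKR1C2 window was not part of this count.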

How the data were processed

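Total RNA (100 ng per sample) was labelled with Cy3 and hybridised to 4 arrays, per the labels. The authors deposited scanner output in linear intensity units, made with Feature Extraction 11.5.1.1 per the file headers, with background subtracted and no scaling between arrays, and probe positions on hg19. How the log2 values of the authors' deposited table were made is not given in the sources used here. They differed from the main setting by a median of at most 0.0069 on each array and served as an alternative.

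Outlier spots were dropped, repeated spots of a probe were averaged as log2 processed signal, and each array's 75th percentile over gene probes was subtracted. The probe of highest mean level stood for its gene, which was counted as measured where well above background on both arrays compared. With 1 array per group, a difference was called by size, at 2-fold. Areas of stray signal were counted within 10 rows and 10 columns of a spot. Python 3.11.15 (pandas 2.3.3, numpy 2.4.6) was used, and for the alternative background correction limma 3.58.1 in R 4.3.3. The steps were tested on simulated data.

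All members were named, genes of the other lists could be named where past 2-fold, and for AKR1B10 and AKR1C1 the 5 genes nearest in pattern. KEAP1, MAFG, NFE2L2, SRXN1, GCLM, AKR1D1, AKR1C6P, AKR1E2 and the values of NQO1 and HMOX1 in HCT116 were named after their values were seen. CBR1, ALDH1A1, KCNAB1, the values of KCNAB2 in HCT116 and the genes at least 16-fold higher were too. Members and lists were chosen with earlier results of these data known. The array design's gene names were kept. The alternatives were other scalings, probe rules, filters, thresholds and the authors' table. Annotation of hg19 and protein sequences were not used here.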

Additional observations from a re-analysis of the deposited data

Results flagged for a closer look

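In 6 of the 7 members measured in both lines, the change with miR-891b had opposite signs in HCT116 and A549. This difference was not tested, since each group had 1 array. The change in A549 minus that in HCT116, on the log2 scale, was -4.66 for AKR1B10 and -4.73 for AKR1B15. It was -0.95 for AKR1C3 and -0.24 for AKR1B1, and it was 0.78 for AKR1A1 and 0.46 for AKR7A2. Only the first 2 rest on a change of 2-fold or more in a line, and the AKR1B15 probe cannot tell these 2 genes apart. The A549 changes of AKR1B10, AKR1B15, AKR1C3 and AKR1B1 took the other sign under at least 1 alternative scaling. How many of all genes had opposite signs was not counted, so nothing is read from the 6 of 7.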

How the results depend on the processing

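The count of members past 2-fold with miR-891b in HCT116 was 2, and 1 without probes in stray areas, where AKR1B15 was left out and AKR1B10 remained. Between the lines on the miR-891b arrays it was 5, and 8 with no filter on dim probes. The NRF2 list past 2-fold in A549 was 3, and 1 with quantile normalization, alone or after normexp; at 1.5-fold it was 10 and at 3-fold 0. In HCT116 it was 0, and 4 at 1.5-fold; between the lines on the NC1 arrays it was 17, and 11 at 3-fold. The AKR1B10 change in HCT116 ranged from 2.38 (normexp with an offset of 50 and quantile normalization) to 4.53, that of AKR1B15 from 1.79 and that of AKR1C3 from 0.49 to 0.96. AKR7A2 was under 2-fold between the lines on the NC1 arrays under 2 of 9 alternatives, quantile normalization alone (-0.97) and after normexp (-0.96). AKR7A3 was under 2-fold on the miR-891b arrays under 4 of 9, which were those that rescaled the arrays (-0.83 to -0.93). The others, such as the mean over probes or no filter on dim probes, could hardly move these single-probe genes. These 2-fold calls thus depend on the scaling. With the 75th percentile taken over probes well above background on all 4 arrays, chosen after the data were seen, the median line difference of all genes moved from -0.10 to 0.022 on the NC1 arrays and from -0.20 to -0.025 on the miR-891b arrays. The share of higher among all calls moved from 35.6% to 46.4% on the miR-891b arrays between lines (45.7% with normexp), from 41.8% to 55.0% in A549, and from 57.9% to 71.1% with normexp in HCT116. Genes higher and lower in HCT116 numbered 221 and 161, but 32 and 13 with normexp, 2788 and 1434 with no filter, 146 and 132 without stray areas, 747 and 1080 at 1.5-fold and 68 and 13 at 3-fold. In A549 they were 855 and 1189, but 348 and 415 with normexp, 2934 and 3081 with no filter, 2369 and 3259 at 1.5-fold and 224 and 326 at 3-fold. Between the lines on the NC1 arrays they were 2127 and 3114, but 1124 and 1435 with normexp, 5301 and 6539 with no filter, 3860 and 5482 at 1.5-fold and 968 and 1429 at 3-fold; on the miR-891b arrays they were 2122 and 3838, but 1436 and 1704 with normexp, 5080 and 7957 with no filter, 3708 and 6342 at 1.5-fold and 1017 and 1736 at 3-fold. AKR1B10, AKR1B15 and AKR1C1 lay at signals of 5 to 30 in HCT116 NC1. Repeated spots at such signals had a median SD of 0.17 to 0.22, over only 6 to 9 probes per array. A fold against such a level is the least certain. AKR1B15 lay nearest the floor there, at 5.73 with a spot error of 1.25, where the lowest signal well above background was 4.69.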
